A study of Danio rerio with 10 samples.

Results

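The genes described here are 5 markers of neurons and motor neurons, elavl3, elavl4, snap25a, isl1 and mnx1, which were chosen by their Ensembl gene identifiers from the 31388 features of the deposited count table. RNA was sequenced from FACsorted cells of the adult zebrafish spinal cord. OPCs were olig2:GFP-positive cells of the line Tg(olig2:eGFP), and OLs were mbp:GFP-positive cells of the line Tg(mbp:eGFP), with 5 biological replicates of each. In both lines a promoter of the named gene drives the GFP that was sorted for, up to 5 spinal cords were dissected together, and the labels name no injury or treatment. The cell suspension passed a 20 µm strainer for OPCs and a 35 µm strainer for OLs, so that line, strainer and cell population cannot be told apart. In this tissue olig2:GFP also marks some ventral radial glia.

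Neurons are commonly recognised by RNA-binding proteins of the ELAV-like family, of which elavl3 (HuC) and elavl4 (HuD) are standard neuronal markers in zebrafish, and by the proteins of the machinery that releases synaptic vesicles. snap25a encodes one of these, a SNARE protein of the presynaptic membrane. isl1 and mnx1 encode homeodomain transcription factors that specify motor neurons. As background, the olig2-positive progenitor domain of the ventral spinal cord gives rise to motor neurons before it gives rise to OPCs. In zebrafish embryos it also gives rise to a group of GABAergic neurons that contact the cerebrospinal fluid. Lineage was not tested in these libraries.

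The 5 genes fell into 3 patterns. elavl3 and elavl4 were abundant in both populations and did not pass the test. snap25a was 30.1-fold higher in OPCs. isl1 and mnx1 had at most 7 counts in an OPC library and 0 counts in every OL library, so that the name motor neuron genes is not borne out by a measurable level in either population.

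The total count of a library was 11072526 to 11960408 in OPCs and 13937725 to 20225093 in OLs, and counts were scaled by median-of-ratios size factors, which gives the normalized counts used below. A floor of 3 counts, the limit that a count of 0 allows, corresponded to 0.251 to 0.271 CPM (counts scaled to the library total) in OPCs and to 0.148 to 0.215 in OLs, and covers counting error only. The cell type labels were compared with marker lists. Of all 12292 tested features, 9.01% were higher and 2.82% lower in OPCs, and these shares stand beside each count here. Of 5 lineage features, olig1 and OLIG2 were higher in OPCs, SOX10 did not pass the test, and CSPG4 and PDGFRA were too low to be tested. Of 7 myelin features, 4 were lower in OPCs and 3 did not pass, and their summed level was 186000 to 209000 CPM in OPCs and 254000 to 267000 in OLs. The OPC libraries thus carried myelin transcripts at a high level. Of 13 radial glia and astroglia features 10 were tested, of which 5 were higher in OPCs, 1 was lower and 4 did not pass. The 13 together summed to 9990 to 12500 CPM in OPCs and 6610 to 10000 in OLs. Among the defining markers SOX2 was near 0 in OLs, and GFAP did not pass the test (99.9 ± 71.6 normalized counts in OPCs and 35.2 ± 15.5 in OLs, SD, 5 libraries each). Endothelial and erythrocyte markers summed to at most 4.06 and 0.588 CPM in an OPC library and to 0.173 and 1.60 in an OL library. Of the 9 microglia and leukocyte features 7 were too low to be tested and the other 2 did not pass, and their sum, mostly apoeb, was 164 to 592 CPM in OPCs and 220 to 947 in OLs. What part these cells have in the results below was not tested.

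elavl3 (ENSDARG00000014420, GRCz10 chromosome 3, 48848938 to 48865522, minus strand, 16 exon blocks, exon length 3405 bases) had normalized counts of 5615, 4858, 3949, 4187 and 6650 in OPC1 to OPC5, against 5359, 6768, 4749, 5112 and 6817 in OL1 to OL5. The 2 ranges overlapped over most of their width, and the lowest library was an OPC and the highest an OL library. elavl3 averaged 5052 ± 1104 normalized counts in OPCs and 5761 ± 966 in OLs (SD, 5 libraries each). The log2 fold change, OPC over OL, was -0.19 with an SE of 0.17 (adjusted p = 0.579 by the quasi-likelihood test of edgeR, corrected after Benjamini and Hochberg over all tested features), and its approximate 95% interval was -0.53 to 0.15.

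elavl4 (ENSDARG00000045639, chromosome 8, 15968442 to 16080266, plus strand, 21 exon blocks, exon length 6658 bases) had normalized counts of 1425, 1288, 1424, 1672 and 1670 in OPC1 to OPC5, against 1667, 1338, 1858, 1961 and 1583 in OL1 to OL5. Again the populations overlapped. The mean was 1496 ± 169 in OPCs and 1681 ± 243 in OLs (SD, 5 libraries each), with a log2 fold change of -0.17 (SE 0.14, adjusted p = 0.55 in the same edgeR test) and an approximate 95% interval of -0.45 to 0.11. Neither elavl3 nor elavl4 passed the threshold in any of the 20 alternative fits, and both changed sign, without passing it, with scaling to library size only (log2 fold changes of 0.12 and 0.14).

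The ratio of elavl4 to elavl3 counts within a library does not depend on the scaling. It lay between 0.251 and 0.399 in OPCs and between 0.198 and 0.391 in OLs. The mean log2 ratio was -1.74 ± 0.31 in OPCs and -1.77 ± 0.44 in OLs (SD, 5 libraries each), with no difference detected (exact permutation test, two-sided, p = 0.881). Over the 10 libraries Pearson's r between the 2 genes, given as a description, was -0.096. With 10 libraries this value does not settle whether the 2 genes moved together.

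The other members of the ELAV-like family gave no difference either. Of 5 features, 4 were tested and 0 passed the threshold in edgeR, with 0 at an unadjusted p under 0.05 and 0 by DESeq2. ELAVL1 (ENSDARG00000101744), the member expressed in most cell types, averaged 2346 ± 608 normalized counts in OPCs and 2288 ± 278 in OLs (SD, 5 libraries each; adjusted p = 0.94, edgeR). ELAVL2, in vertebrates also a neuronal member of the family, had at most 1 count in an OPC library and 0 counts in every OL library.

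snap25a (ENSDARG00000020609, chromosome 20, 35010165 to 35053351, plus strand, 17 exon blocks, exon length 2805 bases) had normalized counts of 310, 1143, 1166, 2038 and 773 in OPC1 to OPC5, against 74.5, 23.6, 2.29, 76.9 and 0 in OL1 to OL5. Every OPC library was above every OL library. OPC1 was the lowest of the OPC libraries and OPC4 the highest, 6.57 times OPC1. snap25a averaged 1086 ± 636 normalized counts in OPCs and 35.5 ± 37.9 in OLs (SD, 5 libraries each), a log2 fold change of 4.91 with an SE of 0.89 (adjusted p = 0.00227, edgeR). Of all tested features 11.8% passed the threshold, 9.01% as higher and 2.82% as lower in OPCs, and in 8.93% every OPC library was above every OL library. In these bulk libraries fewer cells that carry a transcript and less of that transcript per cell cannot be told apart. The log2 fold change remained between 4.56 and 5.38 when any one library was left out, and was 5.15 without OPC1.

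**Figure D1:**
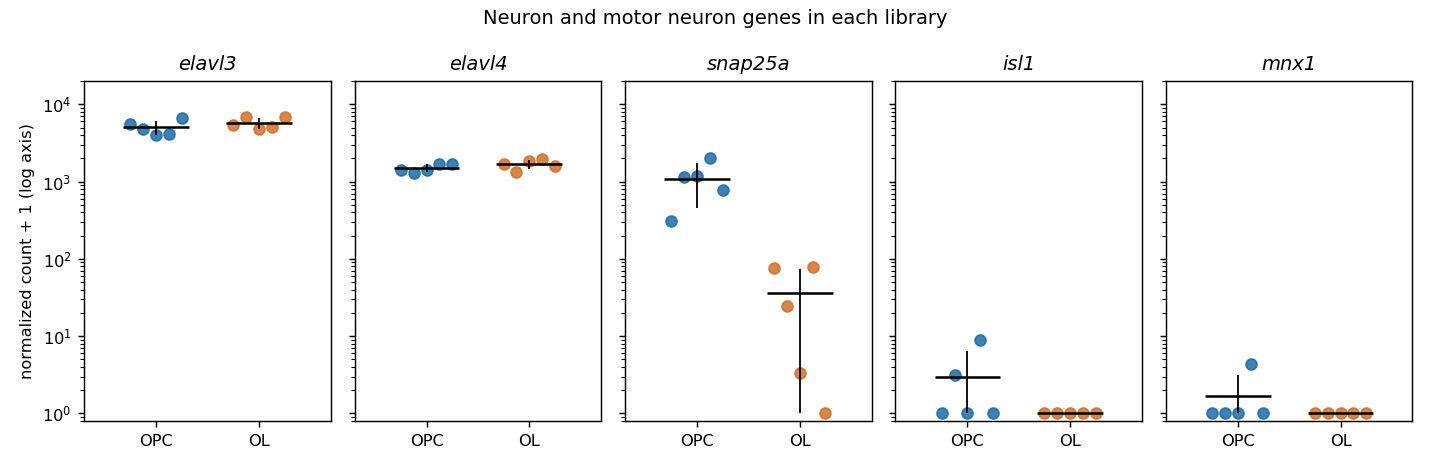
Normalized counts plus 1 of the 5 genes in each library, on a log axis shared by all panels. Points are libraries in the order of their numbers, horizontal lines the mean of 5 libraries, and vertical lines 1 SD either side of the mean, not drawn below a normalized count of 0. elavl3 and elavl4 overlap between OPCs and OLs, snap25a lies between 310 and 2038 in OPCs and between 0 and 76.9 in OLs, and isl1 and mnx1 are at 0 in most libraries.

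isl1 (ENSDARG00000004023, chromosome 5, 40128460 to 40133892, minus strand, 6 exon blocks, exon length 2303 bases) had 0, 2, 0, 7 and 0 counts in OPC1 to OPC5 and 0 counts in every OL library. mnx1 (ENSDARG00000035984, chromosome 7, 40367325 to 40369662, plus strand, 3 exon blocks, exon length 1010 bases) had 3 counts in OPC4 and 0 counts in the other 9 libraries. OPC4 was the library with counts of both genes. Neither gene passed the filter on low counts. The exact two-sided permutation test over the 5 OPC and 5 OL libraries gave p = 0.444 for isl1 and p = 1.0 for mnx1, and a fit without a filter gave adjusted p = 0.138 and 0.278 (edgeR). With counts in only 2 libraries for isl1 and 1 for mnx1, the permutation test could not give a smaller p, whatever the counts. No conclusion is drawn from it. No fold is given, because the mean of each population was under the floor of 3 counts. Over 57961900 counts in OPCs, isl1 had 9 and mnx1 had 3, and over 82713343 counts in OLs both had 0. A low level in a few cells is not detectable at this depth, and the limited number of sorted cells in each library limits detection further.

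Levels of different genes were compared as mean normalized counts per kilobase of exon. In OPCs the order was elavl3 with 1484 ± 324, snap25a with 387 ± 227, elavl4 with 225 ± 25.5, isl1 with 0.864 ± 1.48 and mnx1 with 0.666 ± 1.49 (SD, n = 5). Within that order snap25a and elavl4 did not differ beyond their spread, since snap25a ranged from 111 to 727 and elavl4 from 193 to 251 over the OPC libraries, and neither did isl1 and mnx1. In OLs the order was elavl3 with 1692 ± 284, elavl4 with 253 ± 36.6 and snap25a with 12.6 ± 13.5 (SD, n = 5), with isl1 and mnx1 at 0. In OLs the ranges of the 3 detected genes did not overlap. snap25a thus stood beside elavl4 in OPCs and far below it in OLs.

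The exons of the 5 genes overlap with those of 0 other features of the table, and the 1 feature within the span of elavl4 had at most 1 count in a library. The settings for strand and for reads that map to several genes are not given in the sources used here, so reads of paralogs may be shared. The other feature annotated as SNAP25 (ENSDARG00000058117) had 10, 25, 15, 14 and 0 counts in OPC1 to OPC5 and 0 counts in every OL library, a small fraction of the snap25a counts.

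To place the 5 genes among others of neurons, 7 lists of neuronal genes were matched to the table through gene symbols, which for many zebrafish paralogs are given without the paralog letter. Together they held 98 features, of which 36 passed the filter on low counts. Of these 36, 20 were higher in OPCs and 0 were lower, with a median log2 fold change of 2.69. Over all 12292 tested features 9.01% were higher and 2.82% lower in OPCs, and the median was 0.06. The same shares stand beside the counts of each list below. A feature that is absent from OLs can pass the filter only through OPCs, so the 20 of 36 describes the tested features and not the lists as a whole. Without a filter, 90 of the 98 features had a count and 33 were higher in OPCs, where 9.23% of all features in that fit passed the threshold and 7.76% passed it as higher in OPCs. A stricter filter, a minimum of 10 counts per library, left 12 features, of which 1 was higher and 0 were lower. The high share of 20 of 36 was thus not seen under that filter, which removes any feature under 10 counts in an OL library, snap25a included. Both this fit and the smaller lists below hold few features to set against a share of all features. Without OPC1, 24 of 40 tested features were higher in OPCs.

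**Figure D2:**
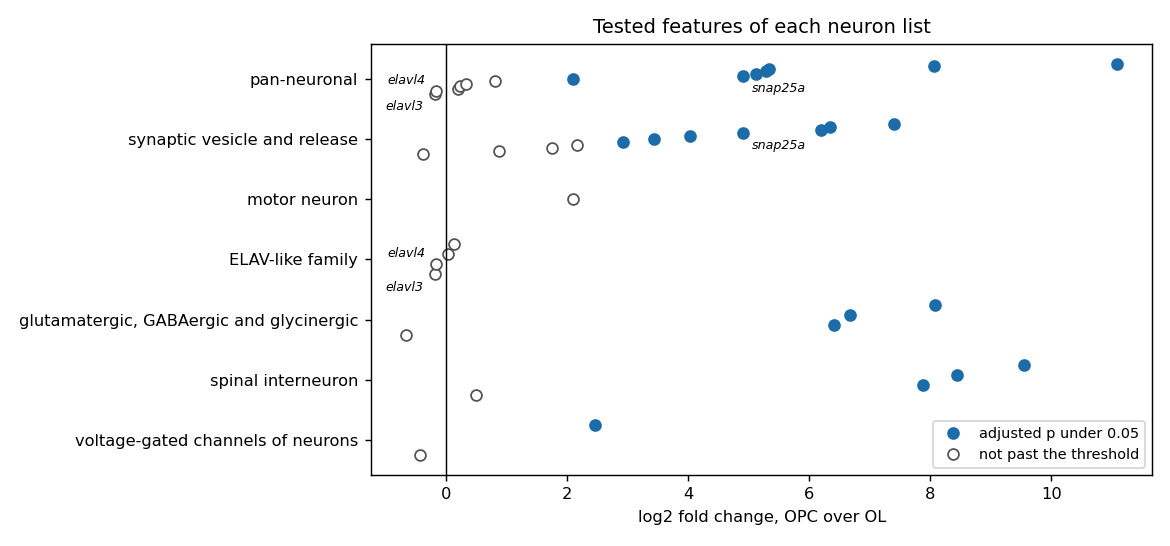
Log2 fold change, OPC over OL, of the tested features of each list, with 1 point for each feature, so that a feature of several lists is drawn in each. Filled points passed the threshold of 0.05 on edgeR's adjusted p and open points did not. The filled points all lie at 2.10 or above, whereas elavl3 and elavl4 lie beside 0 with the rest of the ELAV-like family.

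Of the 19 pan-neuronal features, elavl3, elavl4 and snap25a included, 13 were tested, 7 were higher in OPCs, 0 were lower and 6 did not pass the test. The median log2 fold change of the tested features was 2.10, also with features at 0 in OLs set to their bound, but it depended on which features and libraries were kept. It was 0.27 under a minimum of 10 counts per library, which removed snap25a, map2 and both STMN2 features named below. It was 3.56 without OPC5 and 3.29 to 3.70 with any 1 OL library left out. In these fits the filter was applied anew, so the tested features could change. STMN2 (ENSDARG00000033234), which encodes a tubulin-binding protein of growing axons, had 101, 240, 287, 556 and 161 normalized counts in OPC1 to OPC5 and 0 counts in every OL library. With each OL library set to 3 counts, its level in OPCs was at least 95.0-fold higher (adjusted p = 7.83e-05, edgeR). The second STMN2 feature (ENSDARG00000070537) had 62.1 to 287 normalized counts in OPCs and 3 counts in OL5 as its only counts in OLs. The ratio of its counts, pooled over libraries and scaled by the size factors, was 330 (95% counting interval 113 to 1606, adjusted p = 3.37e-05, edgeR). Such intervals, here and below, cover counting error only and leave out the spread between replicates. map2, which encodes a microtubule-associated protein of dendrites, averaged 126 ± 74.5 normalized counts in OPCs and 2.98 ± 3.21 in OLs (SD, 5 libraries each; adjusted p = 0.000539, edgeR). These genes, like snap25a and unlike elavl3 and elavl4, did not overlap between the populations, with OPCs higher as in 8.93% of all tested features. The other features of the list that did not pass, mapta, NEFL, nefmb and UCHL1, also overlapped (adjusted p = 0.806, 0.626, 0.875 and 0.103, edgeR).

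Of the 22 features of synaptic vesicles and their release, 11 were tested, 7 were higher in OPCs, 0 were lower and 4 did not pass. The median log2 fold change was 3.44. It was 3.23 to 4.55 with any 1 library left out and the filter applied anew (4.55 without OL3 and 4.50 without OL4). A minimum of 10 counts per library left only vamp2 and BSN, neither of which passed in the main fit, and their median was 0.28. snap25a is 1 of the 7. SYN2 (ENSDARG00000045945), a synapsin on vesicles, was also higher in OPCs (123 ± 115 in OPCs and 15.9 ± 7.43 in OLs, SD, 5 libraries each; adjusted p = 0.0101, edgeR), but its ranges overlapped. vamp2, the vesicle SNARE that pairs with SNAP25 proteins in vesicle fusion, averaged 493 ± 122 normalized counts in OPCs and 640 ± 156 in OLs (SD, 5 libraries each) and did not pass (adjusted p = 0.359, edgeR). BSN (ENSDARG00000079161), a scaffold of the presynaptic active zone, averaged 229 ± 77.1 in OPCs and 125 ± 36.9 in OLs (SD, 5 libraries each; adjusted p = 0.0896, edgeR). Thus vamp2, like elavl3 and elavl4, was abundant in both populations.

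Among the neuronal features that were higher in OPCs, snap25a included, OPC1 was the lowest OPC library for 15 of 20 and OPC4 the highest for 12. OPC4 was the highest for 7 of the 7 pan-neuronal and 5 of the 7 synaptic features, but for 0 of the 3 transmitter and 0 of the 3 interneuron features. Among all 1108 features higher in OPCs, OPC1 was the lowest for 57.4% and OPC4 the highest for 42.2%. The total of OPC1, 11544659 counts, was the median of the OPC libraries. For elavl3 the lowest OPC library was OPC3 and the highest OPC5. For elavl4 the lowest was OPC2, and OPC4 was the highest, as for snap25a, with 1672 normalized counts beside 1670 in OPC5.

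**Figure D3:**
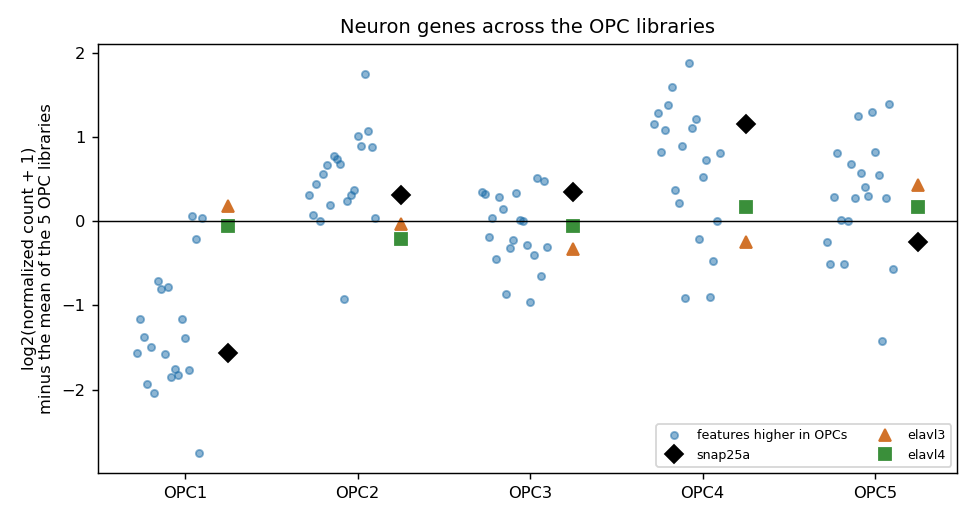
Log2(normalized count + 1) in each OPC library, relative to the mean of the 5 OPC libraries of the same gene. Circles are the 20 neuronal features that were higher in OPCs, and the larger symbols are snap25a (also 1 of the 20), elavl3 and elavl4. OPC1 is the lowest library for 15 of the 20 and OPC4 the highest for 12, whereas elavl3 and elavl4 stay near 0 in each library.

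Over all 10 libraries, the features with a symbol whose log2(normalized count + 1) was most like that of snap25a were LRRN1 (Pearson's r 0.975), PDE4B (0.972) and slc24a6a (0.967), a description over libraries that share the difference between OPCs and OLs. LRRN1, a leucine-rich repeat membrane protein, averaged 951 normalized counts in OPCs and 17.3 in OLs. For elavl3 the nearest were EZR (0.942), sh3kbp1 (0.932) and TUBGCP5 (0.929). For elavl4, BRF1 (0.859) and GPC5 (0.853) were among the nearest. None of the features named here for elavl3 and elavl4 passed the test between the populations.

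The motor neuron list held 14 features, isl1 and mnx1 included, and 13 of them were too low to be tested. None of the 13 had more than 7 counts in an OPC library or more than 3 in an OL library, 11 had at most 3 counts in each library, and 2 had 0 counts in all 10. CHAT, which encodes the enzyme that makes acetylcholine, had 1 count in OPC1 and 0 counts elsewhere. SLC18A3, the vesicular acetylcholine transporter, had 1 count in OPC3 and 0 elsewhere. LHX4, a LIM homeodomain factor of motor neurons, had 5 counts in OPC4 and 0 elsewhere, so OPC4 held the counts of mnx1 and LHX4 and most of those of isl1.

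The exception was ACHE (ENSDARG00000031796), acetylcholinesterase, which breaks acetylcholine down and is not restricted to motor neurons. ACHE had 71.9, 59.8, 117, 156 and 45.9 normalized counts in OPC1 to OPC5, against 28.5, 3.50, 4.57, 36.4 and 31.7 in OL1 to OL5. Although the populations did not overlap, as in 12.6% of all tested features in either direction, it fell just outside the threshold (log2 fold change 2.10, SE 0.65, adjusted p = 0.054, edgeR). Over the 19 alternatives its adjusted p ranged from 0.00593 to 0.129 and was under 0.05 in 6.

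Genes of GABA synthesis were measurable in OPCs. Of 11 features of glutamatergic, GABAergic and glycinergic transmission 4 were tested, and 3 were higher in OPCs, GAD1 and GAD2 among them. GAD1 (ENSDARG00000027419) and GAD2 (ENSDARG00000015537) encode the enzymes that make GABA. GAD1 had 51.2, 150, 95.5, 99.8 and 286 normalized counts in OPC1 to OPC5 and 2 counts in OL3 as its only counts in OLs. Its scaled ratio of pooled counts was 383 (95% counting interval 106 to 3167, adjusted p = 5.33e-05, edgeR). GAD2 had 42.5, 229, 57.6, 163 and 200 normalized counts in OPC1 to OPC5, against 8 counts in OL5 and 0 in the other OL libraries (log2 fold change 6.41, SE 1.04, adjusted p = 0.000985, edgeR). SLC32A1, the vesicular transporter of GABA and glycine, was not tested and had 1.91 to 77.7 normalized counts in OPCs and 0 to 4.05 in OLs. The features of the glutamate transporters SLC17A6 and SLC17A7 and of the glycine transporter SLC6A5 had at most 5 counts in any library.

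Of 18 features of spinal interneurons, 4 were tested and 3 of them, PKD2L1, TAL1 and TAL2, were higher in OPCs. TAL2 is named here after its values were seen. PKD2L1 encodes a channel that marks neurons contacting the cerebrospinal fluid, in which TAL1, GATA2 and GATA3 are known transcription factors. PKD2L1 had 38.1, 487, 368, 265 and 690 normalized counts in OPC1 to OPC5, against 1 count in OL1 and 1 in OL3. Its scaled ratio of pooled counts was 1029 (95% counting interval 284 to 8503, adjusted p = 2.43e-05, edgeR). TAL1 had 81.7, 266, 112, 41.5 and 28.7 normalized counts in OPC1 to OPC5 and 1 count in OL1. For TAL1 the scaled ratio of pooled counts was 570 (95% counting interval 102 to 22551, adjusted p = 7.68e-05, edgeR). OPC1 was the lowest library for PKD2L1 but not for TAL1, which was lowest in OPC5. GATA3 averaged 17.4 ± 15.4 normalized counts in OPCs and 12.4 ± 18.1 in OLs (SD, 5 libraries each; adjusted p = 0.872, edgeR). GATA2 was not tested, with 0 to 31.5 normalized counts in OPCs and 0 in every OL library. All 14 untested interneuron features had at most 30 counts in a library, and 6 of the 18 had 0 counts in all libraries.

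**Figure D4:**
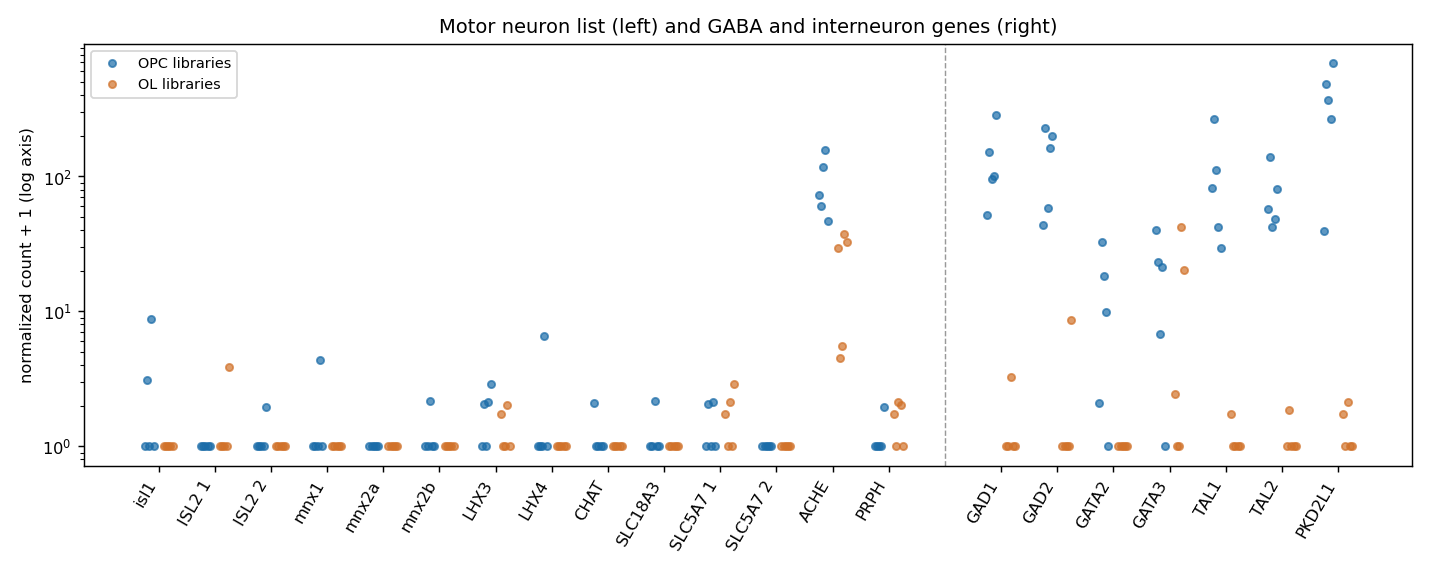
Normalized counts plus 1 on a log axis, with 1 point for each library, for the 14 features of the motor neuron list (left of the dashed line) and for 7 features of GABA synthesis and spinal interneurons (right). Features that share a symbol are numbered. Except for ACHE, no feature of the motor neuron list has more than 7 counts in a library, whereas GAD1, GAD2, TAL1, TAL2 and PKD2L1 are present in all 5 OPC libraries and near 0 in OLs. The left side is a whole list, but the 7 features on the right were picked from lists of 11 and 18. Of those 18 interneuron features, 9 had at most 3 counts in each library.

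Of 15 features of voltage-gated channels of neurons only 2 were tested, and 1, cacna1aa, named after its values were seen, was higher in OPCs. KCNC1 (ENSDARG00000051852), a potassium channel of fast-firing neurons, was not tested because it had 0 counts in OPC1. It had 75.6, 59.9, 40.4 and 44.0 normalized counts in OPC2 to OPC5 and 0 counts in all OL libraries. Without a filter it was called higher in OPCs (adjusted p = 0.00178, edgeR). scn1lab, a sodium channel, averaged 29.9 ± 16.1 in OPCs and 40.5 ± 22.5 in OLs (SD, 5 libraries each; adjusted p = 0.75, edgeR).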

How the data were processed

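The authors used GSNAP to map single-end reads of amplified full-length cDNA on GRCz10, took the reads of each Ensembl gene from featureCounts 1.5.2, and deposited raw counts without normalization. The filterByExpr function of edgeR left 12292 of 31388 features. They were scaled with the median-of-ratios size factors of DESeq2 (0.869 to 1.37) and tested by quasi-likelihood in edgeR, with p-values adjusted after Benjamini and Hochberg over all of them and a threshold of 0.05 (edgeR 4.0.16, DESeq2 1.42.0, limma 3.58.1, R 4.3.3), after the scripts were tested on simulated data. SEs were derived from edgeR's F statistics. The p-values of edgeR set the difference between OPCs and OLs against the spread between the 5 replicates of each population. Symbols came from a gene table that matched 25925 features, and symbols in the lists that lacked a match were left out.

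The 5 genes and the lists were chosen with earlier results of these data known. From each neuron list the text names up to 4 features past the threshold whose higher population averaged 100 normalized counts or more, by fold change, and up to 2 of the most abundant that did not pass. Other features were named where a count needed them, or after their values were seen, and some features that the rule names are not reported here.

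Alternatives were other scalings (TMM, library size, and size factors that left out features above 1% of all counts), no filter, a minimum of 10 counts per library, the Wald test of DESeq2, voom in limma with weights for library quality, robust dispersions, thinning to the smallest total, a replicate block, a threshold of 0.01, a pseudocount of 5 for the ratio, and leaving out each library.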

Additional observations from a re-analysis of the deposited data

Results flagged for a closer look

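Of 39 groups of 5 libraries examined for the genes that the rule names and the text reports, 6 had a library far from the others, where chance would give about 1.95. These counts are small, and a group with a single library above 0 always stands apart. In OPCs, isl1 was 7.85 normalized counts in OPC4 and at most 2.10 in the others, and mnx1 was 3.36 in OPC4 and 0 in the others. In OLs, the second STMN2 feature was 2.88 in OL5, GAD1 2.29 in OL3, GAD2 7.69 in OL5 and TAL1 0.731 in OL1, each with 0 in the other OL libraries.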

How the results depend on the processing

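The log2 fold changes of elavl3 and elavl4 were 0.12 and 0.14 with library size alone, where the median of all tested features moved by 0.31, and neither passed the threshold. snap25a passed it in all 19 alternatives that kept it. Under a minimum of 10 counts per library snap25a was not tested, and the features higher in OPCs were 1 of the pan-neuronal list and 0 of the synaptic, transmitter, interneuron and channel lists. Without a filter 11 synaptic and 5 channel features were higher. 1 motor neuron feature, ACHE, was higher under 5 alternatives: no filter, library size, DESeq2, limma voom and thinning. 1 transmitter feature was lower with DESeq2 and with the replicate block. The median of the ELAV-like family was 0.23 with library size alone, and that of the transmitter list -0.62 under the minimum of 10 counts. Each fit with a library left out applied the low-count filter anew, so the tested features could change. Of the neuronal features 36 were tested in the main fit, against 41 without OL replicate 3 and 42 without OL replicate 1, 2, 4 or 5. In such fits 0 to 1 motor neuron features were higher (1 without OPC replicate 5) and 0 to 1 transmitter features were lower (1 without OL replicate 2). The channel features that were higher numbered 1 to 3 (3 without OPC replicate 1, 2 with any single OL replicate left out). The elavl4 to elavl3 difference was -0.10 to 0.14 with a library left out. The isl1 difference was 0.52 to 2.49 normalized counts, lowest without OPC replicate 4, and that of mnx1 0 to 0.84, at 0 without it.

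Over all features, 1455 differed, 1108 higher and 347 lower in OPCs. There were 2336 (1964 higher) without a filter, 449 (284 higher, 165 lower) under the minimum of 10 counts, 1811 higher and 118 lower with library size alone, 589 lower with DESeq2, 638 lower with limma voom, and 877 (119 lower) at an adjusted p under 0.01. The share of calls higher in OPCs was 76.2%, against 93.9% under library size scaling. A replicate block gave 1407, 1236 of them among the 1455. Same-numbered libraries had correlations of 0.024 to 0.104 between their deviations, against -0.102 to 0.0729 for libraries with different numbers. Of the 5 OPC libraries, 4 correlated best with their own number. The main fit nevertheless did not take the numbers as pairs, and whether libraries of the same number share a batch was not tested. The cause of the changes between alternatives was not tested.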
